A study of Rattus norvegicus with 12 samples.

Results

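The 6 libraries with a raised level of Prkaa2, the alpha 2 catalytic subunit of AMP-activated protein kinase (AMPK), were compared with the 6 others of a series of 12. They were chosen by measured level: 3 libraries of cells given wild-type KAT6A (WT) and 3 labelled K815Q had raised Prkaa2, and 3 LacZ and 3 K815R libraries had low Prkaa2. All were primary ventricular heart muscle cells of newborn rats, taken 2 days after an adenovirus had delivered its cargo. LacZ, a bacterial gene, was the control cargo. The other cargoes were human KAT6A, a histone acetyltransferase, as the wild type, as K815R (a lysine changed to arginine, which cannot be acetylated there) or as K815Q (changed to glutamine, which resembles an acetylated lysine). All 4 groups carried virus, and no uninfected group was analysed here. The labels do not say whether replicates came from separate cultures or litters, so p-values measure only the spread between these libraries.

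AMPK is a kinase of 3 subunits (alpha, beta and gamma) that senses a low energy charge of the cell through AMP and ADP bound to gamma and is switched on when LKB1 or CaMKK2 phosphorylates alpha. Active AMPK favours uptake and burning of glucose and fatty acids and restrains the synthesis of lipid and protein, and alpha 2 is the main catalytic form in adult heart and skeletal muscle. Its activity is set largely by phosphorylation, which mRNA counts do not measure.

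The choice of groups rests on Prkaa2 and on Kat6a, so both are described here without a test. Prkaa2 (ENSRNOG00000007706) stood at 55.4, 54.8 and 72.7 CPM (counts scaled to a common library size) in LacZ, at 78.1, 95.4 and 88.1 in K815R. It stood at 488, 435 and 633 in WT and at 1232, 1134 and 1139 in the libraries labelled K815Q. The raised libraries thus differed among themselves, with all 3 labelled K815Q above all 3 WT. The lowest raised library had 435 CPM and the highest low library 95.4 CPM. Rat Kat6a (ENSRNOG00000025174), a histone acetyltransferase gene, stood at 90.8, 82.0 and 106 CPM in WT and 102, 122 and 101 in K815R. The libraries labelled K815Q had 43.4, 49.97 and 45.7, against 45.5, 45.2 and 53.6 in LacZ. The libraries labelled K815Q therefore lacked the raised Kat6a reading that the other KAT6A viruses gave, so they go against their label, and results are given with and without them. Counts do not tell RNA made from a virus from RNA of the cells' own gene, for Kat6a or for Prkaa2.

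**Figure D1:**
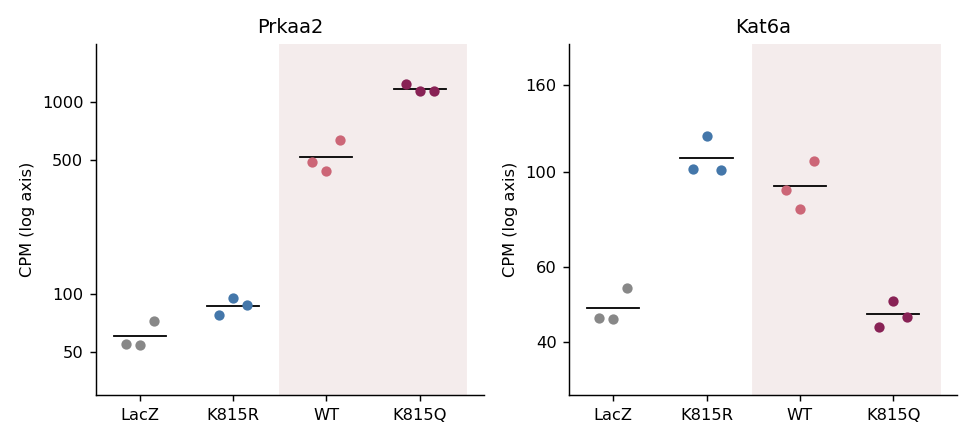
Levels of Prkaa2 (left) and Kat6a (right) in each library, in CPM on log axes. Points are libraries, black lines are means of 3, and shading marks the groups with raised Prkaa2. The shaded points for Prkaa2 lie between 435 and 1232 CPM and the unshaded ones between 54.8 and 95.4 CPM.

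With both Prkaa2 levels present at both Kat6a levels, the effect that goes with Prkaa2 was taken as the average of 2 differences that share no library: WT against K815R, with Kat6a raised in both, and the libraries labelled K815Q against LacZ, with Kat6a raised in neither. The log2 difference in Prkaa2 was 2.57 in the first and 4.26 in the second. Fold changes below are log2 values of raised against low Prkaa2, averaged in this way unless a pair of groups is named. Tests are the quasi-likelihood test of edgeR, with p-values adjusted by Benjamini-Hochberg over the 14061 genes tested. A gene is called, and said to rise or fall, at an adjusted p under 0.05. Cargo and Prkaa2 level cannot be told apart within either pair of groups.

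Depth was somewhat lower in the raised libraries, with 19102048 to 20791074 gene counts against 20076614 to 25451686 in the low ones. The libraries labelled K815Q had 19192015 to 19906699 and LacZ 22095429 to 23870785, without overlap. The cells carried the defining markers of heart muscle. The 10 cardiomyocyte markers, all present, summed to between 49210 and 51930 CPM in the raised libraries and 48040 to 54870 in the low ones. Fibroblast markers summed to 8047 to 9418 against 8203 to 9509 CPM, endothelial markers to 190.5 to 268.4 against 222.1 to 273.1, macrophage and leukocyte markers to 111.8 to 127.5 against 85.34 to 122.3, and smooth muscle and pericyte markers to 4061 to 4267 against 4181 to 4646. None of these 52 markers found in the table was at 0 in all libraries. Within the pairs of groups compared below, some sums did not overlap. Cardiomyocyte markers summed to 50020 to 51570 CPM in WT, below 53730 to 54870 in K815R. Yet their median log2 fold change in that pair was 0.0124, with 1 called, lower, so this sum too does not stand for the typical marker. Smooth muscle and pericyte markers summed to 4061 to 4267 in WT, below 4525 to 4646 in K815R. Their median log2 fold change in that pair was only -0.0185, with 0 called, so the sum does not stand for the typical marker. Macrophage and leukocyte markers summed to 120.1 to 127.5 in the libraries labelled K815Q, above 85.34 to 111.6 in LacZ. Their median in that pair was 0.28, with 2 called higher and 1 lower. The part of cell composition was not tested. In bulk RNA, fewer cells of a type and less RNA per cell cannot be told apart.

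Averaged over both Kat6a levels, 740 of 14061 genes were called (5.26%). Of these 295 were higher (2.1%) and 445 lower (3.16%) in the raised libraries. Changes were small, with a median absolute log2 fold change of 0.26 among the called genes, and only 48 reached 2-fold, 2 higher and 46 lower. At an unadjusted p under 0.05, 2923 genes were found. Without the 3 libraries labelled K815Q, when only WT against K815R remains, 269 genes were called, and 132 of them were among the 740. Leaving out single libraries gave between 376 genes (without K815Q replicate 1) and 792 (without K815Q replicate 2), with 400 without WT replicate 2 and 433 without LacZ replicate 2.

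For many genes the average did not stand for the same change at both Kat6a levels. WT against K815R called 308 genes (2.19%), with 123 higher (0.875%) and 185 lower (1.32%). The libraries labelled K815Q against LacZ called 1103 (7.84%), with 402 higher (2.86%) and 701 lower (4.99%). Both called 51, which is 16.6% of the first list and 4.62% of the second. In 32 of these the direction was the same (0.228%), and in 19 it was opposite (0.135%). The 2 differences themselves differed in 411 genes (2.92%), 127 of which were among the 740. Of the 740, 414 were called only in the libraries labelled K815Q against LacZ, 114 only in WT against K815R and 179 in neither pair alone. In 232 genes (1.65%) the 6 raised libraries lay all above (113, 0.804%) or all below (119, 0.846%) the 6 low ones, and 175 of these were called.

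**Figure D2:**
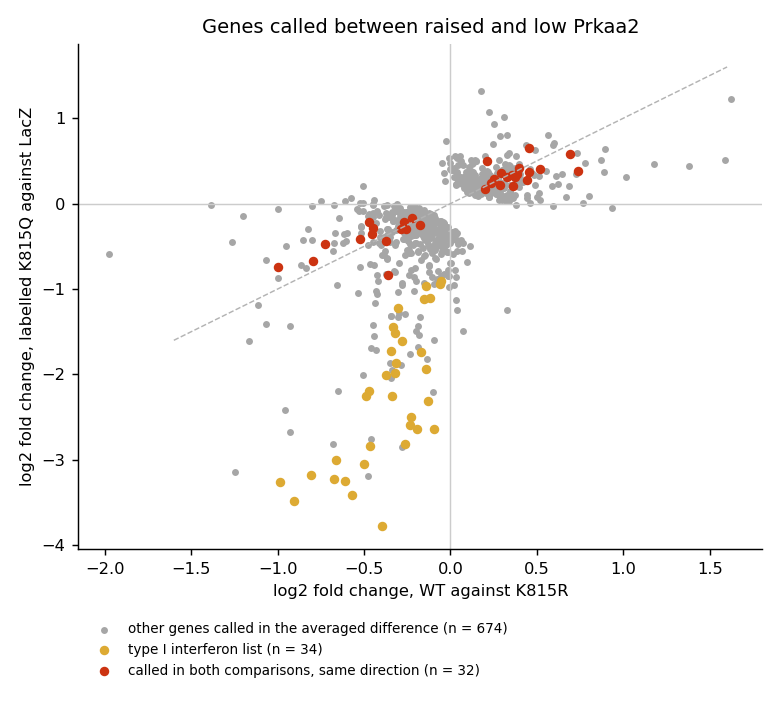
Log2 fold change of WT against K815R (x axis) and of the libraries labelled K815Q against LacZ (y axis) for the 740 called genes. Red points are the 32 genes called in both pairs in the same direction, yellow points are the 34 called interferon genes, grey points are the others, and the dashed line marks equal values. The yellow points lie below the dashed line, down to under -3 on the y axis, while most red points lie near it.

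The 32 genes called in the same direction in both pairs of groups comprised 18 that rose (0.128% of genes tested) and 14 that fell (0.0996%). In 27 of them the 6 raised libraries did not overlap the 6 low ones, as in 1.65% of all genes tested. All 32 were called in the average in each of the 12 fits that left out 1 library, and 26 were called in WT against K815R when the libraries labelled K815Q were left out of the fit. These values come from the libraries that chose the genes, so they describe the 32 and are no separate support. Being called in both pairs at once was less stable. Of the 32, between 11 and 24 were still called in both pairs when 1 library was left out. Over all genes, newly called ones included, 12 were called in both pairs in the same direction without WT replicate 2. The number was 13 without K815Q replicate 1, 16 without WT replicate 1, 19 without K815Q replicate 3 and 21 without WT replicate 3. It was 20 without any 1 of the 3 K815R replicates, and 22 to 40 in the other fits. The 15 with the largest smaller change were chosen by rule, and those named beyond them were picked after their values were seen.

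The genes that rose were chosen by the test and not drawn from a list. Mb, myoglobin, the oxygen store of heart and slow muscle, had 1113, 1156 and 1188 CPM in WT and 1214, 1114 and 1240 in the libraries labelled K815Q, against 969, 900 and 915 in LacZ and 1042, 819 and 966 in K815R. All 6 raised libraries lay above all 6 low ones, with K815R replicate 1 the nearest. The log2 fold change was 0.32 (SE 0.0483, adjusted p 4.21e-04), with 0.29 in WT against K815R and 0.36 in the other pair. Myh7b, a slow myosin heavy chain, had 112.9 to 142.1 CPM (median 129.1) in the raised libraries and 88.35 to 108.3 (median 99.92) in the low ones. Its log2 fold change was 0.36 (SE 0.0364, adjusted p 4.4e-06), with WT the highest group. Rnf207, a ubiquitin ligase that affects the cardiac potassium channel Kcnh2, had 188.2 to 219.1 CPM (median 200) against 149.2 to 168.2 (median 159.7), and rose by 0.34 (SE 0.0355, adjusted p 5.81e-06).

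Dhrs7c, a dehydrogenase of the sarcoplasmic reticulum, had 17.82 to 22.35 CPM in the raised libraries (median 19.49) against 12.02 to 16.67 (median 14.28), and rose by 0.46 (SE 0.0676, adjusted p 2.71e-04). Clic2, a chloride channel family member that can modulate the ryanodine receptor, had 112.0 to 128.8 CPM against 84.54 to 101.1 and rose by 0.35. Rapsn, which clusters acetylcholine receptors in skeletal muscle, had 26.20 to 32.71 CPM against 20.89 to 23.65 and rose by 0.36. Hhatl, a gene of the hedgehog acyltransferase family expressed in muscle, rose by 0.18, with 131.8 to 144.5 CPM against 117.0 to 125.8. In these 4 genes, as in Mb, Myh7b and Rnf207, no raised library overlapped a low one.

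Cilp, a matrix protein that binds TGF-beta, had 17.1, 16.3 and 19.2 CPM in WT and 15.7, 13.0 and 15.0 in the libraries labelled K815Q, against 10.9, 10.9 and 11.5 in LacZ and 10.6, 10.9 and 10.0 in K815R. The low libraries spanned 10.04 to 11.52 CPM, and WT lay above the libraries labelled K815Q. Its log2 fold change was 0.56 (SE 0.0635, adjusted p 1.32e-05), with 0.74 in WT against K815R and 0.39 in the other pair. Adamtsl2, which binds fibrillin microfibrils, had 43.76 to 51.65 CPM against 30.26 to 37.51 and rose by 0.41 (SE 0.0491, adjusted p 2.66e-05). Ccn5, a matricellular protein, rose by 0.41, with 23.90 to 30.46 CPM against 18.29 to 23.32. Postn, periostin, rose by 0.28, with 350.2 to 437.1 CPM against 286.4 to 328.0, and Dpt, dermatopontin, rose by 0.32, with 20.74 to 23.51 against 16.67 to 18.73 CPM.

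Postn and Dpt are also among the 10 fibroblast markers, whose summed level overlapped between raised and low libraries as given above. Of those 10 markers 3 rose (Postn, Dpt and Tcf21) and 1 fell (Pdgfra, -0.30), so 40% were called, against 5.26% of all genes. Tcf21 and Pdgfra differed between the pairs. Tcf21 stood at -0.01 in WT against K815R and 0.53 in the other pair, and kept its call in 6 of 12 fits with 1 library left out. Pdgfra stood at -0.54 and -0.06. The part of fibroblast number in these values was not tested. The remaining genes that rose in both pairs were Pik3ip1, which restrains PI3 kinase (0.36), Phgdh, the first enzyme of serine synthesis (0.27), Isyna1, the inositol phosphate synthase (0.26), Peg3, an imprinted zinc finger gene (0.24), Fam180a (0.64) and LOC688553 (0.55). Pik3ip1 had 80.32 to 86.62 CPM in the raised libraries and 55.12 to 72.94 in the low ones, with K815R above LacZ. Peg3 was the exception to non-overlap, since libraries labelled K815Q reached down to 53.09 CPM and K815R up to 58.72.

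**Figure D3:**
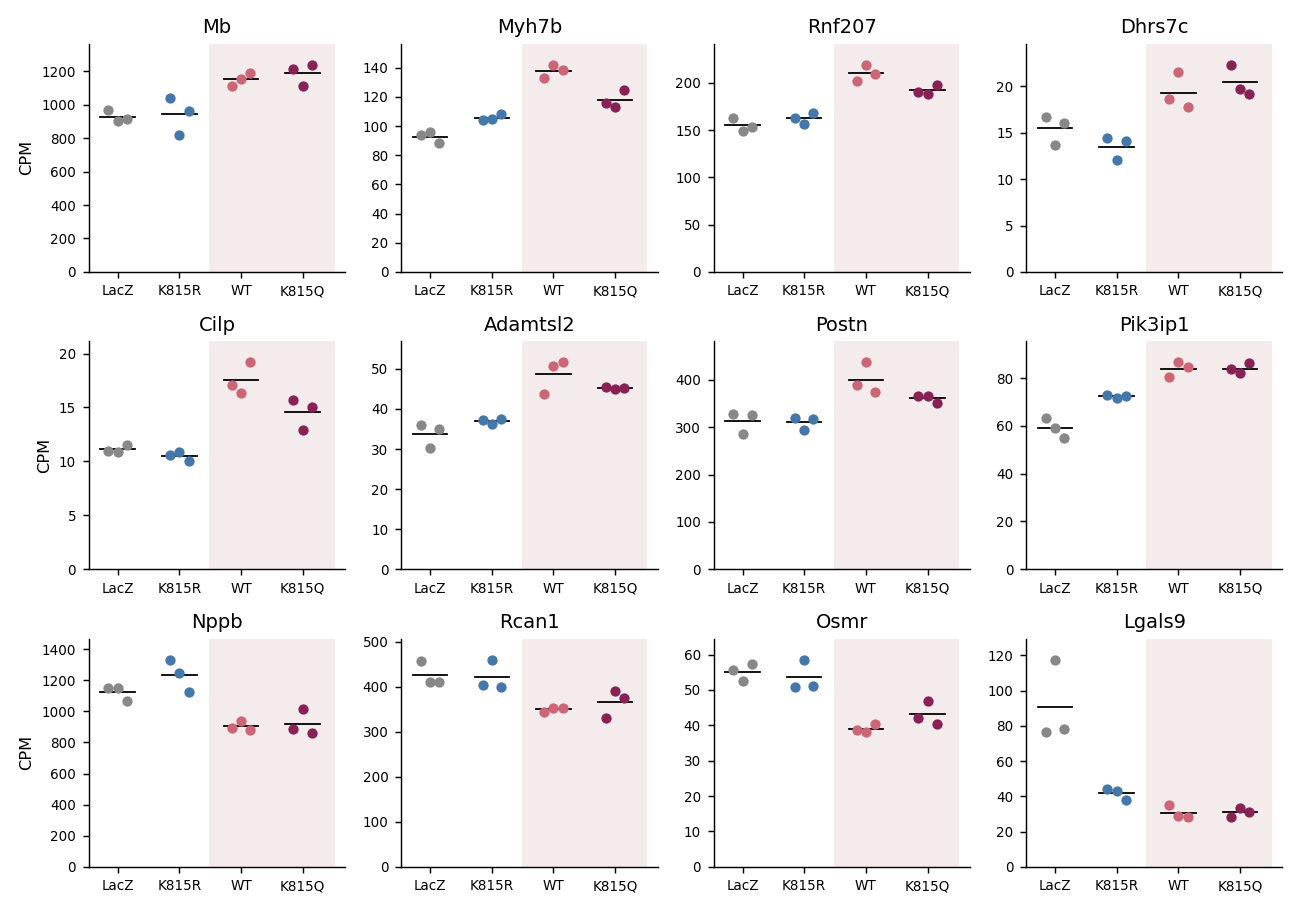
CPM of 12 genes called in the average, in each of the 12 libraries, on axes that start at 0. Points are libraries, black lines are means of 3, and shading marks the groups with raised Prkaa2. In the first 8 panels every shaded point is above every unshaded one, and in the last 4 every shaded point is below.

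Among the 14 genes that fell in both pairs was Nppb, B-type natriuretic peptide, a secreted hormone whose transcript climbs with stretch and hypertrophy. It had 890, 937 and 881 CPM in WT and 889, 1013 and 858 in the libraries labelled K815Q, against 1149, 1147 and 1068 in LacZ and 1332, 1245 and 1123 in K815R. Every raised library was below every low one, and the low libraries' minimum was 1068 CPM. The log2 fold change was -0.37 (SE 0.046, adjusted p 5.33e-05), with -0.45 in WT against K815R and -0.29 in the other pair. Rcan1, an inhibitor and transcriptional target of calcineurin, had 330.0 to 390.4 CPM against 400.0 to 459.7 and fell by 0.24 on the log2 scale (SE 0.0453, adjusted p 0.00265).

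Osmr, the oncostatin M receptor, had 38.04 to 47.02 CPM in the raised libraries against 50.84 to 58.57, and fell by 0.40 on the log2 scale (SE 0.0472, adjusted p 2.08e-05). Flt4, the VEGF receptor of lymphatic endothelium, had 49.81 to 59.02 CPM against 61.80 to 79.61, a log2 fold change of -0.29. P4ha1, the collagen prolyl hydroxylase subunit, had 185.5 to 206.5 against 214.9 to 227.0 CPM (-0.19). Nefh, the heavy neurofilament, had 4.238 to 5.783 against 7.090 to 8.912 CPM (-0.60), and Rspo3, an enhancer of Wnt signalling, had 1.809 to 2.336 against 3.142 to 3.922 CPM (-0.73). No raised library overlapped a low one in any of these 5 genes. The importin Ipo5 (-0.22), the zinc transporter Slc39a6 (-0.34), C1qtnf1 (-0.41) and Chi3l1 (-0.47) fell too, the last 2 with overlap. Ly6e (-0.60) and Ifitm3 (-0.28, with overlap), both induced by interferon, complete the set together with Hbb.

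Haemoglobin reads were few but lower in the raised libraries. Hbb, the beta chain, had 2.485, 3.101 and 2.899 CPM in WT and 5.562, 3.402 and 4.377 in the libraries labelled K815Q, against 6.542, 6.109 and 4.359 in K815R and 9.008, 7.844 and 5.45 in LacZ. The log2 fold change was -0.87 (SE 0.153, adjusted p 0.00428), and 2 of the libraries labelled K815Q lay within the low range. Hba-a2, the alpha chain, is listed at 2 near-identical copies, among which reads may be split, and both fell (-0.93 and -0.79). The 8 haemoglobin genes found, a list put together after these values were seen, summed to 9.33 to 18.19 CPM in the raised and 17.89 to 30.67 in the low libraries, with Hbz, Hbe2 and Hbg1 at 0 in all 12. Of 7 other red cell genes, Gata1 was at 0 in all 12 libraries, and their sum was 6.703 to 8.418 against 6.811 to 10.29 CPM. The part of residual red cells was not tested.

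Of AMPK's 6 other subunits tested, 1 was called (16.7%, against 5.26% of all genes). Prkab1 (beta 1) had 129.7 to 146.3 CPM in the raised libraries against 120.2 to 128.2, without overlap, and rose by 0.14 (SE 0.0342, adjusted p 0.0222). That call was lost without LacZ replicate 2, WT replicate 2, WT replicate 3 or K815Q replicate 1. Prkaa1, the other catalytic subunit, had 36.35 to 47.07 CPM against 37.56 to 49.05, with a difference of -0.08 on the log2 scale (SE 0.0652, adjusted p 0.528). Prkab2 (-0.09), Prkag1 (0.03), Prkag2 (0.03) and Prkag3 (0.13, at 1.426 to 2.599 CPM over all libraries) were not called. Of the 10 genes that flank Prkaa2 in the RefSeq gene table, only Plpp3, a lipid phosphatase, was matched in the count table, and it was not called (0.03, adjusted p 0.779).

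Upstream and downstream of AMPK, each list below had at most 1 call. With 13 to 31 genes a list, that is near the 5.26% called among all genes. Of 13 upstream kinases, phosphatases and regulators, 1 was called (7.69%): Flcn, folliculin, 0.14 (adjusted p 0.027), lost in 8 of 12 fits with 1 library left out. Of 31 substrates and effectors, 1 was called (3.23%, against 5.26% of all genes): Eef2k, the kinase that slows translation elongation. Eef2k had 51.29 to 56.32 CPM in the raised libraries and 44.33 to 50.48 in the low ones, and rose by 0.17 (SE 0.0398, adjusted p 0.0159), a call lost without K815Q replicate 3. Of 13 AMPK-related kinases 1 was called (7.69%): Sik1 fell (-0.28, SE 0.0566, adjusted p 0.00591), with 42.57 to 49.89 CPM against 47.86 to 61.33. Tfeb, a transcription factor of lysosome genes, rose by 0.18 as the only call among 21 mTOR pathway genes (4.76%). Its call was lost without LacZ replicate 2, WT replicate 2 or K815Q replicate 1. Pink1, the kinase that marks damaged mitochondria, rose by 0.21 as the only call among 30 autophagy genes (3.33%). None of 24 lysosome genes was called.

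Genes for energy metabolism, the processes AMPK is known for, were mostly not called, as were most genes tested (5.26% called). None of 31 genes of fatty acid uptake and oxidation passed, with a median log2 fold change of 0.02 beside a median of 0.003 over all genes. Cpt1b, which admits long-chain fatty acids to mitochondria, had 159.2 to 185.4 CPM against 159.7 to 191.1 (-0.03, SE 0.0418, adjusted p 0.691). Ppargc1a, a coactivator of mitochondrial genes, was at 0.04 (SE 0.0638, adjusted p 0.769), and none of 21 biogenesis regulators was called. Pdk4, which blocks pyruvate oxidation, stood at -0.30 (SE 0.102, adjusted p 0.0917). Acacb and Acaca, the acetyl-CoA carboxylases that AMPK phosphorylates, stood at 0.05 and -0.17 (adjusted p 0.553 and 0.0634).

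Oxidative phosphorylation genes lay mostly above 0 by small amounts. All 36 entries of the complex I list, all nuclear, had a positive log2 fold change, with a median of 0.08. Of the list for complexes II to V, 41 of 42 entries did, with a median of 0.07. Ndufv3 in the first list, and Uqcrb and Cox6b1 in the second, have more than 1 entry. Only 1 entry was called in each list (2.78% and 2.38%). The medians were 0.04 and 0.02 in WT against K815R, and 0.14 for both lists in the libraries labelled K815Q against LacZ. The genes called were Ndufa4 (0.13, adjusted p 0.0429, lost in 9 of 12 fits with 1 library left out) and Cox8b, the heart and muscle form of a cytochrome oxidase subunit. Cox8b had 254.1 to 283.6 CPM against 187.1 to 262.9, with K815R replicate 1 inside the raised range, and it rose by 0.33 (SE 0.0476, adjusted p 4.07e-04). Its values were 0.50 in the libraries labelled K815Q against LacZ and 0.15 in WT against K815R, which differed from each other (adjusted p 0.0493). The 13 mRNAs of mitochondrial DNA had opposite medians in the 2 pairs, -0.12 in WT against K815R and 0.31 in the other, and none was called in the average.

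Of 18 fatty acid and lipid synthesis genes 6 fell (33.3%, against 3.16% of all genes) and none rose, with a median log2 fold change of -0.11. Fads2 and Elovl5, which desaturate and lengthen polyunsaturated fatty acids, stood at -0.21 and -0.22, and Acss2, which makes acetyl-CoA from acetate, at -0.22. Elovl5 had 33.37 to 39.51 CPM in the raised libraries and 39.87 to 47.30 in the low ones, so the states did not overlap. Fads1, Insig1 and Me1 were the others. Of 22 cholesterol genes 3 fell (13.6%), led by Stard4, a sterol carrier, at -0.34. Stard4 stood at -0.11 in WT against K815R and -0.57 in the other pair. The other 2, Fdft1 and Msmo1, kept their calls in only 2 and 1 of 12 fits with 1 library left out. In WT against K815R alone no lipid synthesis gene was called, with a median of -0.06, and 7 were in the other pair, with a median of -0.17. Without WT replicate 2, or without K815Q replicate 1, 2 of the 18 were called. Glucose handling gave 3 of 23 lower (13%), among them Slc2a1, the glucose transporter GLUT1 (-0.20, 186.9 to 218.8 against 199.9 to 249.4 CPM). All 3 were lost without K815Q replicate 1. Of 16 glycogen genes 3 fell (18.8%): Pygl, Gbe1 and Ugp2. Gbe1 and Ugp2 kept their calls in 8 and 5 of 12 fits with 1 library left out. Pygl stood at -0.45 in WT against K815R and -0.01 in the other pair.

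Of 16 hypertrophy and fetal program genes 6 fell (37.5%, against 3.16% of all genes) and none rose, and their median was -0.12 on the log2 scale (-0.11 in WT against K815R and -0.08 in the other pair). Besides Nppb and Rcan1 these included Acta1, skeletal alpha-actin, with 537.8 to 681.3 CPM against 699.4 to 870.7 (-0.31, SE 0.0679, adjusted p 0.0226), and Myh7, the slow beta-myosin. Myh7 had 3875, 3682 and 4190 CPM in WT against 4945, 5153 and 5100 in K815R. The libraries labelled K815Q had 3251, 3986 and 3698 against 3807, 4715 and 3661 in LacZ. The gap was clear for WT and K815R while the other pair overlapped, and the average was -0.26 (SE 0.0623, adjusted p 0.0222). Myh7 lost its call without WT replicate 1, WT replicate 2 or K815R replicate 2, and Acta1 lost its call without K815R replicate 1, K815R replicate 2 or K815Q replicate 1. Xirp2 and Fhl1 also fell. Nppa, the atrial natriuretic peptide, was not called in the average (-0.15, SE 0.0519, adjusted p 0.0959). It stood at -0.29 in WT against K815R (adjusted p 0.037) and at -0.0036 in the other pair. Myh6, the fast alpha-myosin, was at 0.03. Without the libraries labelled K815Q 4 of the 16 were called, all lower.

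Of 17 adult contraction genes 3 rose (17.6%): Mb, Ckm, the muscle creatine kinase (0.17, 975.1 to 1049 against 834.1 to 972.8 CPM), and Mybpc3, the cardiac myosin-binding protein C (0.13). Of 24 calcium-handling genes 2 rose (8.33%), Dhrs7c and Pln, the phospholamban that restrains the calcium pump (0.14). Of 22 potassium and sodium channel genes 2 rose (9.09%, against 2.1% of all genes higher), Kcnj11, the pore of the ATP-sensitive potassium channel (0.21, 62.87 to 73.66 against 57.44 to 61.17 CPM), and Kcnh2 (0.13). Without the libraries labelled K815Q 0 channel genes were called. Mybpc3, Pln and Kcnh2 were each lost in at least 5 of 12 fits with 1 library left out.

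Among the 36 lists the largest median was that of genes induced by type I interferon, and it differed in size between the pairs. Of 36 tested genes of the response 34 fell (94.4%, against 3.16% of all genes), with a median log2 fold change of -1.26. That median was -2.22 in the libraries labelled K815Q against LacZ, with 35 called, and -0.32 in WT against K815R, with 0 called, and in 21 of the 36 genes the 2 changes differed from each other. The 38 genes found summed to 1366 to 2015 CPM in LacZ, 650.0 to 750.4 in K815R, 492.5 to 695.1 in WT and 463.1 to 537.4 in the libraries labelled K815Q. LacZ stood apart from all 3 other groups, WT overlapped K815R, and LacZ replicate 2 was the highest library. In a model that assumes 1 shared change at both Kat6a levels 2 of the 36 were called, and without the libraries labelled K815Q 0 were. Without K815Q replicate 1 the number was 26.

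Isg15, a ubiquitin-like modifier, had 40.4, 80.2 and 37.3 CPM in LacZ, 17.4, 12.9 and 13.9 in K815R, 10.95, 4.44 and 6.80 in WT and 4.99, 5.38 and 6.04 in the libraries labelled K815Q. The raised libraries were all below the low ones, with WT replicate 1 at 10.95 and K815R replicate 2 at 12.85 CPM. Its averaged log2 fold change was -2.12 (SE 0.298, adjusted p 0.00624), made of -3.26 in the libraries labelled K815Q against LacZ and -0.98 in WT against K815R, which was not called (adjusted p 0.363). The difference between the 2 did not pass the test (adjusted p 0.0952). Oasl (-1.83) and Ifi27 (-0.89) of the list, and outside it the guanylate-binding proteins Gbp2 (-1.14) and Gbp5 (-1.09), the galectin Lgals9 (-0.997) and Lgals3bp (-0.78), also fell without overlap between the states. None of these 6 was called in WT against K815R. Gbp2 lost its call without WT replicate 2 or K815Q replicate 1, and Gbp genes have close copies among which reads may be split.

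Among the named genes of at least 5 CPM whose 2 changes differed by the test, Dhx58 had the largest difference. Dhx58, a helper of the RNA sensors, stood at -2.81 in the libraries labelled K815Q against LacZ and at -0.26 in WT against K815R (adjusted p of the difference 0.0451). Cxcl10, a chemokine for T cells, Rsad2, the antiviral enzyme viperin, and Uba7, which activates Isg15 for conjugation, followed in size. Ddx58, the sensor RIG-I, stood at -2.25 and -0.49 (adjusted p of the difference 0.00913), and the class I antigen gene RT1-S3 came after it. Of 20 antigen presentation genes 13 fell (65%), with a median of -0.51. None was called in WT against K815R. RT1 genes are a family of near-copies, and their single values are uncertain for that reason.

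**Figure D4:**
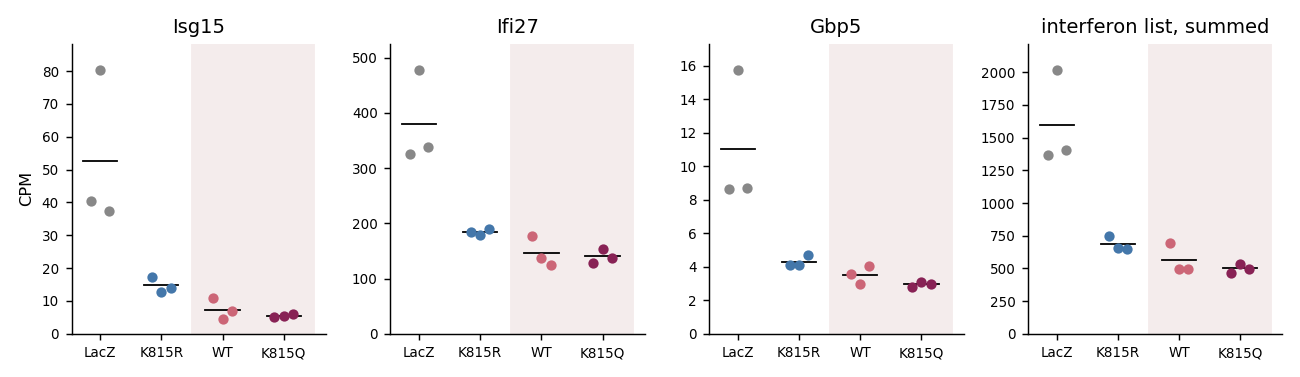
CPM of Isg15, Ifi27 and Gbp5 and the summed CPM of the type I interferon list in each library, on axes that start at 0. Points are libraries, black lines are means of 3, and shading marks the groups with raised Prkaa2. LacZ replicate 2 is the highest point in each panel, and K815R lies between LacZ and the shaded groups by its mean.

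Since these genes moved together, their start regions were read for the interferon-stimulated response element, a DNA motif found before many genes that interferon induces. The letters searched were GAAA, any 2 bases and GAAA again, on both strands in the 250 bases before the RefSeq start. Of all 33469 such windows 1140 held them (3.41%), as did 16 of 28 windows of the interferon list (57.1%). The 12 genes named per direction by size were called, had at least 5 CPM, the same sign in both pairs and no overlap. Of 10 windows matched to the 12 lowered ones 5 held the letters (Gbp2, Gbp5, Ifi27, Lgals3bp and Lgals9). Of 10 windows of the 12 raised ones 0 did, and of 25 windows of the 32 genes called in both pairs 1 did (Ifitm3). A match describes letters and not bound protein. The windows of 3 lowered interferon-inducible genes and of Nppb, which fell in both pairs and holds no match, are shown 5′ to 3′ on the gene's strand (RefSeq, GRCr8), with matches in capitals (on the opposite strand the motif reads TTTC, 2 bases, TTTC).
Gbp5, chr2:233910749-233910998, plus strand: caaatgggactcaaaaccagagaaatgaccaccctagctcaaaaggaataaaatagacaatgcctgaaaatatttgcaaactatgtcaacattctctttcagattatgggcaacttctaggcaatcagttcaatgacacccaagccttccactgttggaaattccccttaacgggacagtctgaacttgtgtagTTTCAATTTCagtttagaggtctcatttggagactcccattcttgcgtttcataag
Ifi27, chr6:128355062-128355311, plus strand: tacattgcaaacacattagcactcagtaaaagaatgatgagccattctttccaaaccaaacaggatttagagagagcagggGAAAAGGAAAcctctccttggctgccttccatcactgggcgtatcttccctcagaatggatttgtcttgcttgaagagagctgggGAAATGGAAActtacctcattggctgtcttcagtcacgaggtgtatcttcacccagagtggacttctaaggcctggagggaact
Lgals9, chr10:64428071-64428320, minus strand: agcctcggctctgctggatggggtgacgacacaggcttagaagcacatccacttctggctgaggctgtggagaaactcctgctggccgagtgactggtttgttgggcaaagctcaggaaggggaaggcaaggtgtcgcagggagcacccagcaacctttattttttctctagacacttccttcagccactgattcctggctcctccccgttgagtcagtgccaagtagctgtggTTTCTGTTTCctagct
Nppb, chr5:163699758-163700007, plus strand: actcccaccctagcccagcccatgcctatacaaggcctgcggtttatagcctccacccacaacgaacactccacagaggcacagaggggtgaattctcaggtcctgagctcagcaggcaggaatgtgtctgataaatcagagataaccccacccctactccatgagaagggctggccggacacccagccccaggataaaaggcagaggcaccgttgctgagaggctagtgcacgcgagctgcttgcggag
The windows of Gbp5 and Lgals9 hold 1 match each, and that of Ifi27 holds 2.

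Of 26 inflammatory cytokine and NF-kB target genes 5 fell, 1 rose and 20 were not called (23.1% called, against 5.26% of all genes). Their median was 0.01 in WT against K815R, with 2 called higher and 2 lower, and -0.18 in the other pair. C3, the central complement protein, had 11.57 to 15.63 CPM in the raised libraries and 18.10 to 27.01 in the low ones (-0.58, SE 0.103, adjusted p 0.00578). Ptx3, a secreted pattern recognition protein, had 8.553 to 14.02 against 15.06 to 23.71 CPM (-0.61, SE 0.0936, adjusted p 0.00106), with WT below the libraries labelled K815Q. Lcn2, an iron-binding acute phase protein, stood at -0.61 but lost its call without any 1 of the WT, K815R or labelled K815Q libraries. Ccl2, a chemokine for monocytes, rose by 0.23 but lost its call without LacZ replicate 1 or 3, WT replicate 1 or 3, or K815R replicate 1 or 2, and 1 of 13 macrophage and leukocyte markers, Lyz2, rose by 0.24. The summed macrophage and leukocyte markers, given above, were lowest in LacZ, and their part in these values was not tested.

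Of 41 cell cycle genes 6 fell (14.6%), among them Mcm3 and Mki67, with a median of -0.15 that was made of -0.34 in the libraries labelled K815Q against LacZ and 0.02 in WT against K815R. Without WT replicate 2 the list had 1 call, and without the libraries labelled K815Q it had 0. Of 26 p53 targets 4 fell (15.4%), led by Cdkn1a, the cell cycle inhibitor p21, with 132.2 to 159.3 CPM against 162.7 to 203.0 (-0.29, SE 0.0475, adjusted p 0.0011). Of 23 integrated stress response genes 4 rose and 1 fell (21.7% called, against 5.26% of all genes). Trib3, a pseudokinase target of this response, stood at 0.26 and Slc7a11, the cystine transporter, at 0.37. For Slc7a11 the values were 0.67 in WT against K815R and 0.07 in the other pair. Of 22 NRF2 targets 2 rose and 5 fell (31.8% called). In WT against K815R 3 were called higher and 0 lower, and in the other pair 0 higher and 5 lower. Nqo1, a quinone reductase, rose by 0.38 on average, but by 0.76 in WT against K815R and 0.0049, not called, in the other pair. Hmox1, haem oxygenase, stood at -0.44 and lost its call in 8 of 12 fits with 1 library left out. Heat shock genes (2 of 27 lower), BMP response genes (2 of 17 lower), immediate early genes (1 of 23 lower), ribosomal protein genes (1 of 68 higher) and collagen and matrix genes (2 higher and 2 lower of 31) had medians between -0.07 and 0.07, though in WT against K815R and in the other pair the medians were -0.22 and 0.17 for BMP response genes, -0.13 and 0.17 for immediate early genes, and -0.04 and 0.12 for ribosomal protein genes. None of 10 genes of the KAT6A complex and its paralogs was called.

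**Figure D5:**
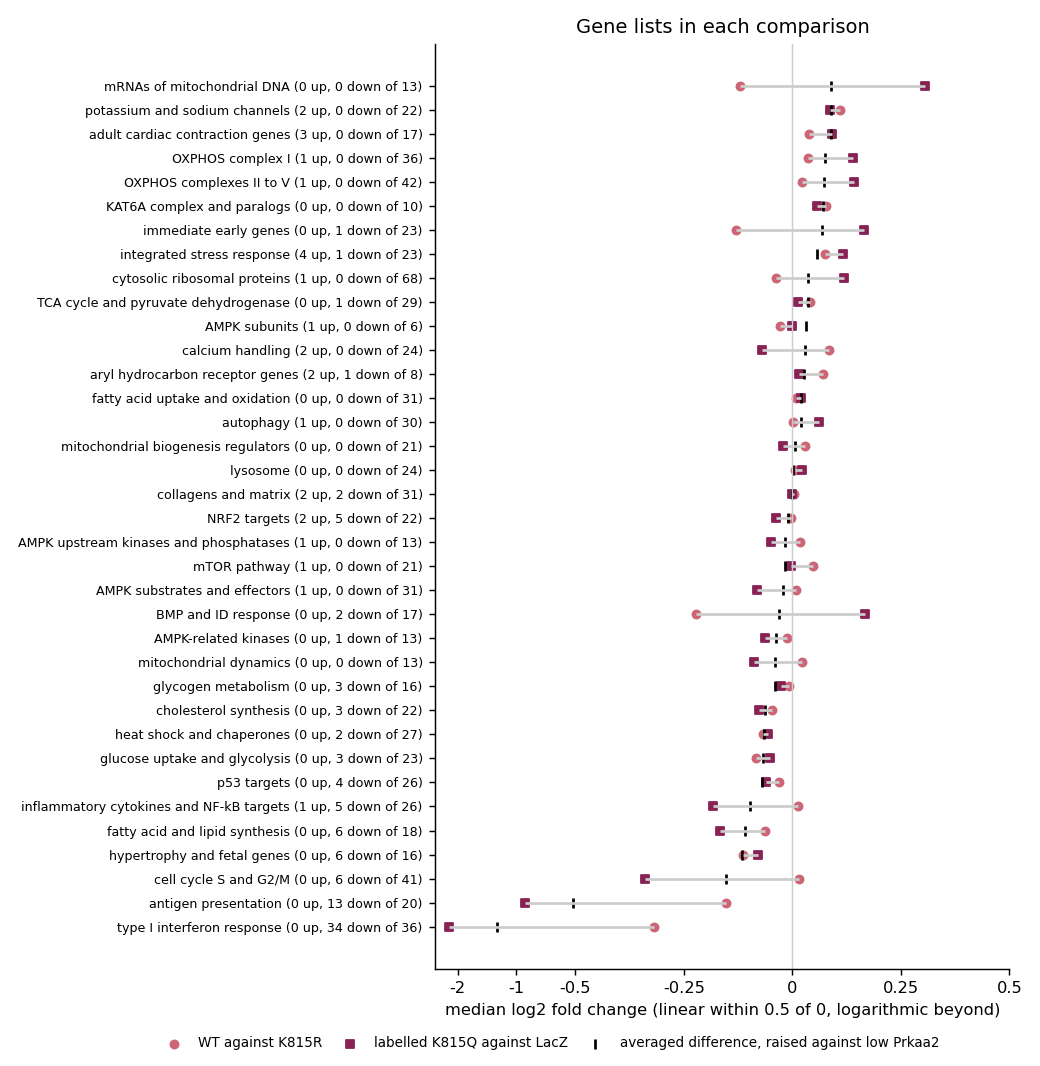
Median log2 fold change of each of 36 gene lists in WT against K815R (circles), in the libraries labelled K815Q against LacZ (squares) and in the averaged difference (ticks), with the numbers called in the average beside each name. The axis is linear within 0.5 of 0 and logarithmic beyond. The interferon and antigen presentation lists lie far to the left, and most other ticks lie near 0.

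The 12 raised genes named by size of change were modest. Each was called, with at least 5 CPM, the same sign in both pairs and no overlap. Outside this choice, Cyp1a1 (0.91, its call lost without K815Q replicate 1) and Fam180a (0.64) rose more. Mmp12, macrophage elastase, had 42.53 to 51.94 CPM in the raised libraries and 20.90 to 40.78 in the low ones (0.57, SE 0.0916, adjusted p 0.00529). LacZ was lowest at 31.9, 20.9 and 28.2 CPM, and the change was 0.81 in the libraries labelled K815Q against LacZ but 0.32, not called, in WT against K815R. Gcgr, the glucagon receptor, had 6.896 to 9.045 against 4.991 to 6.594 CPM (0.45). Sec16b, of the endoplasmic reticulum exit sites, had 24.28 to 34.21 against 20.84 to 23.07 CPM (0.40), with WT above the libraries labelled K815Q. Klhl33 (0.41), Cmklr1, the chemerin receptor (0.40), Fam151b (0.37) and Efemp1, the matrix protein fibulin-3 (0.37), completed the 12 with Cilp, LOC688553, Dhrs7c, Adamtsl2 and Ccn5. All 12 were called in each of the 12 fits that left out 1 library. Those fits reuse the libraries that chose the genes, so this is no separate support. Among the lowered genes outside the interferon response were Abca4, a lipid flippase (-0.81, 3.618 to 4.418 against 5.177 to 10.70 CPM), and Pla2g2a, a secreted phospholipase (-0.94), which lost its call in 9 of 12 such fits.

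The 19 genes called in opposite directions show where the average is no common effect; they were picked after their values were seen. Klf2, a transcription factor, had 14.8, 14.6 and 14.8 CPM in the libraries labelled K815Q against 9.05, 10.2 and 8.28 in LacZ, and 10.0, 10.2 and 10.6 in WT against 13.1, 12.9 and 14.7 in K815R. It was higher in the libraries labelled K815Q and in K815R, without overlap with LacZ or WT, and its averaged log2 fold change was 0.15 (adjusted p 0.187). Wnt4, a secreted Wnt ligand, had the same signs, with 0.50 in the libraries labelled K815Q against LacZ and -0.62 in WT against K815R. Cebpb, a transcription factor of inflammation and growth, stood at 0.21 and -0.31, Klf4 at 0.26 and -0.35, and Gpc3, a surface proteoglycan, at 0.44 and -0.40. The remaining 14 included Sox9, Gas1, Cygb, Cyp1b1 and Errfi1.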

How the data were processed

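The authors deposited 1 table of raw read counts per gene for 12 libraries; per the submitters' processing notes it was made with Trimmomatic 0.39, HISAT2 2.2.1, HTSeq 0.6.1 and edgeR on Rnor_6.0. The strand setting is not given in the sources used here, so antisense and overlapping genes are uncertain, and reads of close copies may be lost or split. Groups came from the sample titles. From the deposited counts of 32883 genes, filterByExpr (minimum count 10, minimum total 15) kept 14063; Prkaa2 and Kat6a were left out of the counts of calls. Scaling was by TMM. edgeR 4.0.16 in R 4.3.3 fitted 4 group means with the quasi-likelihood test and Benjamini-Hochberg adjustment; standard errors are the log2 fold change over the root of F. The procedure was tested on simulated data. CPM values are scaled by TMM. Named genes are the 12 with the largest change per direction that were called, had at least 5 CPM, the same sign in both pairs and no overlap; 15 of those called in both pairs; up to 4 called genes per list of 36 lists and 5 marker lists; a panel of AMPK and growth genes; the neighbours of Prkaa2; and 6 genes with unlike pairs. Members, lists and rules were chosen with earlier results of these data known. Alternatives were RLE scaling, other filters, DESeq2 1.42.0, an additive model, the replicate block, a stricter threshold and leaving out libraries.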

Additional observations from a re-analysis of the deposited data

Results flagged for a closer look

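For the named genes of at least 5 CPM, the change in WT against K815R was tested against the change in the libraries labelled K815Q against LacZ, and genes for which the 2 changes differed (adjusted p under 0.05, quasi-likelihood test of edgeR, Benjamini-Hochberg over all genes) are listed with the log2 difference, WT against K815R less the other pair. Interferon-inducible and antigen presentation genes had less negative values in WT against K815R: Dhx58 (2.55), Cxcl10 (2.54), Rsad2 (2.45), Uba7 (2.29), Ddx58 (1.76), RT1-S3 (1.70), RT1-T24-4 (1.68), Gbp5 (1.61), Lgals3bp (1.03) and Ly6e (0.48). Of the 19 genes called in opposite directions, 16 reached this level and gave Wnt4 (-1.12), Klf2 (-1.08), Gpc3 (-0.84), Gas1 (-0.83), Sox9 (-0.83), Arrdc3 (0.83), Pknox2 (-0.78), Clk1 (0.76), Bicc1 (-0.73), Cyp1b1 (-0.72), Errfi1 (-0.68), RGD1305464 (-0.68), Akr1b8 (0.64), Klf4 (-0.61), Cygb (-0.54) and Cebpb (-0.52). Genes of metabolism and stress with unlike values were Nqo1 (0.76), Slc7a11 (0.60), Stard4 (0.47), Acaca (0.46), Pygl (-0.43), Cox8b (-0.35), Acacb (0.31) and Pik3ip1 (-0.29). Cell type, matrix, growth and other genes were Tcf21 (-0.54), Mki67 (0.54), Pdgfra (-0.48), Lyz2 (-0.48), Ccl2 (0.45), Lox (-0.42), Rpl34 (-0.39) and Sec16b (0.38).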

How the results depend on the processing

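The number of genes called in the average (740), in both pairs in the same direction (32) and with unlike pairs (411) was recomputed under each alternative. It stayed within 1.5 times under RLE scaling, a minimum of 10 counts in every library, DESeq2 and the replicate block, and 33 genes were called in both pairs when each was fitted on its own 6 libraries. With no filter on low counts, the 3 numbers were 1151, 86 and 813. The additive model, which assumes 1 change at both Kat6a levels, called 265 in the average, an adjusted p under 0.01 left 246, and leaving out the libraries labelled K815Q left 269. Leaving out 1 library gave 376 to 792 genes in the average, 12 to 40 in both pairs and 169 to 679 with unlike pairs. The lowest numbers came without K815Q replicate 1, WT replicate 2 and K815Q replicate 1, and the highest without K815Q replicate 2, K815Q replicate 2 and K815R replicate 2. The number with unlike pairs was also 182 to 206 without LacZ replicate 3, WT replicate 1, WT replicate 3, K815R replicate 1 or K815R replicate 3, and 253 without LacZ replicate 2. The median of the adult contraction list ranged from 0.0483 to 0.1006, and it moved by more than the spread only without K815R replicate 2. The cause was not tested. Of 158 named genes, 126 of them called, 63 lost the call in the additive model and 75 without the libraries labelled K815Q. Without those libraries another 4, not among the 75, changed sign: Mki67 (0.0744), Rpl34 (-0.0379), Tcf21 (-0.0106) and Lyz2 (-4e-04). A further 15 named genes, not called in the average, gained a call.

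Deviations from the group mean correlated from -0.127 to 0.122 over 18 pairs of same-numbered libraries, 1 above 0.1. Over 36 pairs with different numbers they correlated from -0.1292 to 0.145, 3 above 0.1. The numbers were therefore not used to pair the samples in the main fit. Correlations over all genes cannot exclude that same-numbered libraries shared a culture or litter. With the replicate block 827 genes were called in the average, 47 in both pairs and 588 with unlike pairs, and 4 named genes lost the call.

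With 3 libraries a group, and cargo and Prkaa2 level not separable, the comparison describes libraries and not an effect of Prkaa2.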
